A study of Mus musculus with 8 samples.

Results

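The variable segments of the mouse immunoglobulin kappa light chain locus (Igkv) were followed in 8 RNA-seq libraries of splenic B cells. A segment was taken as any entry of the deposited count table whose Ensembl identifier carries a GRCm38 symbol that begins with Igkv. This gave 103 of the 43629 entries, of which 97 are annotated as functional variable genes and 6 as pseudogenes, in 19 families named by the number after Igkv. Another 57 annotated Igkv entries were not analysed here. Usage of a segment is its share of all Igkv counts in a library, in percent.

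The 4 libraries labelled GFP-ZFP36L1 came from mice of genotype Rosa26GFPZFP36L1 CD23cre/+, and the 4 control libraries from mice that carried the same Rosa26GFPZFP36L1 allele with no Cre named. Every group therefore held the transgene, and Cre and expression of the fusion protein cannot be told apart. The labels give spleen as the tissue and ex vivo follicular B cells as the cell type, with a sort for B220, CD93, CD21 and CD23 after bead enrichment. Age is not given. Nothing in the labels ties each library to an animal of its own, so the p-values speak only of spread among these 8 libraries, which may be technical. ZFP36L1 is an RNA-binding protein that promotes decay of mRNAs with AU-rich elements. The comparison asks whether kappa segment usage differs when GFP-ZFP36L1 is expressed from the CD23-driven Cre, a driver that acts in late transitional and mature B cells.

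As background, each B cell precursor joins an Igkv segment to an Igkj segment by RAG-mediated recombination, and the product is spliced to the constant exon Igkc. Segments in the orientation of Igkj join by deletion and those in the opposite orientation by inversion of the DNA between them. The end of the variable segment and the joining segment together encode the third complementarity-determining region (CDR3), part of the antigen-binding site. Follicular B cells have completed this step, and their kappa transcripts report the joins that survived selection in the animal.

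The germline ends of the segments that the results turn on are printed so that their contributions to the CDR3 can be compared. Each line holds the last 75 coding bases, 5′ to 3′ on the coding strand, from the GENCODE mouse release M21 transcripts of GRCm38. Capitals mark the bases after the conserved cysteine codon. The first 4 lines are abundant segments, the next 4 are Igkv10-96 and Igkv17-127, whose shares varied between libraries, each followed by its most similar segment, and the last is the segment that was called, that is, passed an adjusted p of 0.05 between the groups.
Igkv1-117, chr6:68121046-68121827, plus strand: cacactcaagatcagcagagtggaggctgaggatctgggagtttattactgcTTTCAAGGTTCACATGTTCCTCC
Igkv1-135, chr6:67609713-67610508, plus strand: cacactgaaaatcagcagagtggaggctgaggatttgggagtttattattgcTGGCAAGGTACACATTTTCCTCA
Igkv6-15, chr6:70406469-70406992, minus strand: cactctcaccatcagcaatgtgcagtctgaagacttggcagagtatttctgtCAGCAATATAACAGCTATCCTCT
Igkv1-110, chr6:68270485-68271267, plus strand: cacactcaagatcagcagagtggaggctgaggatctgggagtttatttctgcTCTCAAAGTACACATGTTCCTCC
Igkv10-96, chr6:68631963-68632442, minus strand: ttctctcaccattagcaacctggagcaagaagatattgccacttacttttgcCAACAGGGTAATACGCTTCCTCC
Igkv10-94, chr6:68704508-68704978, minus strand: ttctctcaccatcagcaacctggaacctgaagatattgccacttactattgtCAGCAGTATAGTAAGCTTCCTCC
Igkv17-127, chr6:67861153-67861659, plus strand: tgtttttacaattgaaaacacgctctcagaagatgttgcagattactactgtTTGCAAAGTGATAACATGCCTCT
Igkv17-121, chr6:68036812-68037318, plus strand: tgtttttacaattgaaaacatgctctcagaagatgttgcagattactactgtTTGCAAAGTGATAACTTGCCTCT
Igkv4-63, chr6:69377944-69378472, minus strand: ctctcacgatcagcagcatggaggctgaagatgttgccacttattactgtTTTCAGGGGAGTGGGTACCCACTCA

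Igkv4-63 ended with 25 bases after the cysteine codon, and the other 8 segments each ended with 23. Many segments resemble one another closely enough for reads to be shared. Over windows of 100 bases, the read length, 57 of the 103 segments had no window in common with a transcript of any other annotated gene, while 26 had under 90% of their windows unique. A copy of at least 97% identity existed for 19 segments, and the lowest unique share was 37.1%. Values of segments with shared windows are therefore uncertain between close copies, as are single-segment differences among them.

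Library totals lay between 38947758 and 48328512 counts in the libraries labelled GFP-ZFP36L1 and between 40976668 and 51024233 in the controls. Gt(ROSA)26Sor, the transcript at the insertion site of the allele, lay between 3.17 and 4.46 counts per 1000000 (CPM, on TMM-scaled totals) in libraries labelled GFP-ZFP36L1 and between 13.6 and 19.9 CPM in controls, with no overlap. The Zfp36l1 entry had 471, 447, 437 and 402 CPM in libraries labelled GFP-ZFP36L1, against 599, 523, 532 and 535 CPM in controls (edgeR's quasi-likelihood test, Benjamini-Hochberg adjusted p = 0.0348). This direction is opposite to the label, and the table does not separate a transgene transcript from the endogenous one, so the groups are named by their labels. Cd79a, a signalling chain of the B cell receptor, lay between 2106 and 2717 CPM in libraries labelled GFP-ZFP36L1 and between 2464 and 2833 CPM in controls. T cell markers (Cd3e, Cd3d, Cd4 and Cd8a) summed to at most 0.341 CPM in libraries labelled GFP-ZFP36L1 and 0.402 CPM in controls. Cd93, a protein of the stated sort, had an mRNA level of 8.87 to 14.6 CPM in libraries labelled GFP-ZFP36L1 and 8.40 to 13.2 CPM in controls.

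Total kappa variable expression overlapped between the groups. Igkv segments together had 3335, 2950, 3086 and 2486 CPM in the libraries labelled GFP-ZFP36L1, against 3404, 3385, 3243 and 2944 CPM in controls, or 2964 ± 356 and 3244 ± 213 CPM (SD, n = 4 each). The lowest value was in replicate 4 of GFP-ZFP36L1 and the lowest control value was also in replicate 4. Here and below, replicate numbers follow accession order only, and the labels do not match libraries between the groups. Behind these levels stood 102049 to 144819 Igkv counts per library labelled GFP-ZFP36L1 and 119824 to 168286 per control library. There were 1.54 ± 0.05 Igkv counts for each count of the constant gene Igkc in libraries labelled GFP-ZFP36L1 and 1.47 ± 0.09 in controls, again overlapping. In bulk RNA, fewer cells that use a segment and less RNA from each such cell cannot be told apart, which holds for every level and share below.

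Usage was broad. Of the 103 segments, 51 held at least 0.5% of Igkv counts and 38 at least 1%, as means over the 8 libraries. The effective number of segments, the exponential of the Shannon entropy of the shares, was 55.7, 55.3, 54.6 and 55.2 in libraries labelled GFP-ZFP36L1, against 55.3, 54.1, 53.6 and 55.8 in controls. The 10 leading segments held 37.6% ± 0.79 of Igkv counts in libraries labelled GFP-ZFP36L1 and 37.8% ± 1.13 in controls (SD, n = 4 each). No count was recorded in any library for 3 pseudogenes, and 98 segments had enough counts to be tested. The 5 that were not tested, 4 pseudogenes and Igkv1-35, had at most 24 counts over all 8 libraries.

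**Figure D1:**
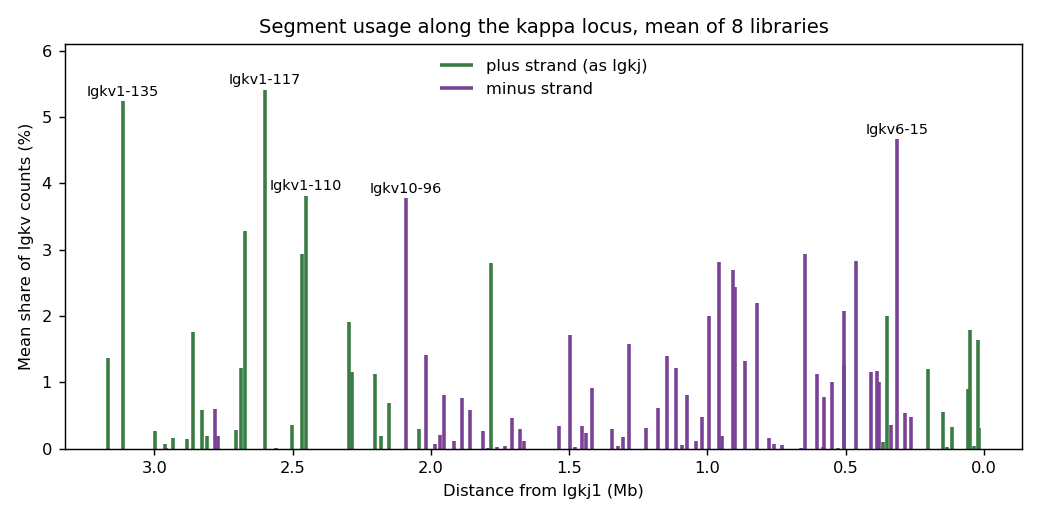
Mean share of Igkv counts over the 8 libraries (percent, vertical axis) of each of the 103 segments by distance from Igkj1 (Mb, horizontal axis), with colour for the strand. Leading segments stand at both ends of the locus: Igkv6-15 lies 315570 bp from Igkj1, and Igkv1-135 lies 3112054 bp away.

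Used segments were spread along the whole locus, from 18385 to 3166346 bp upstream of Igkj1. The 34 segments nearest to Igkj1 held 34.1% ± 0.97 of Igkv counts in libraries labelled GFP-ZFP36L1 and 34.2% ± 1.13 in controls. The next 34 held 26.2% ± 0.55 in libraries labelled GFP-ZFP36L1 and 26.1% ± 0.45 in controls. The farthest 35 held 39.6% ± 1.36 in libraries labelled GFP-ZFP36L1 and 39.7% ± 1.5 in controls (SD, n = 4 each). In each of these 3 parts of the locus the groups differed by less than 1 SD. The 39 segments on the plus strand, the orientation of Igkj, took 45.4%, 45.8%, 45.3% and 47.3% of counts in libraries labelled GFP-ZFP36L1, against 44.6%, 44.2%, 44.7% and 46.3% in controls, and the groups overlapped.

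Igkv1-117 was the leading segment by counts, with 5.22%, 5.53%, 5.54% and 5.37% in libraries labelled GFP-ZFP36L1 and 5.23%, 5.20%, 5.55% and 5.63% in controls. It differed little from library to library, with a coefficient of variation (CV) of 3.23% over 8 libraries. Of the 100-base windows of Igkv1-117, 83.9% were unique, and its nearest segment was Igkv1-110 at 97.5% identity. Igkv1-135, of the same family and near the far end of the locus, had 4.92%, 4.86%, 5.33% and 6.53% in libraries labelled GFP-ZFP36L1, against 4.66%, 4.75%, 5.20% and 5.63% in controls. Its highest library in each group was replicate 4, and the groups overlapped. Igkv6-15, near Igkj1 and opposite in orientation, had 4.81%, 4.60%, 4.69% and 4.57% in libraries labelled GFP-ZFP36L1 and 4.79%, 4.59%, 4.55% and 4.71% in controls, the smallest spread of the 3 with a CV of 2.17%. Scaled per kilobase of exon, the mean shares of Igkv6-15, Igkv1-117 and Igkv1-135 were 4.98%, 4.96% and 4.93%, so their order depends on whether length is taken into account.

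**Figure D2:**
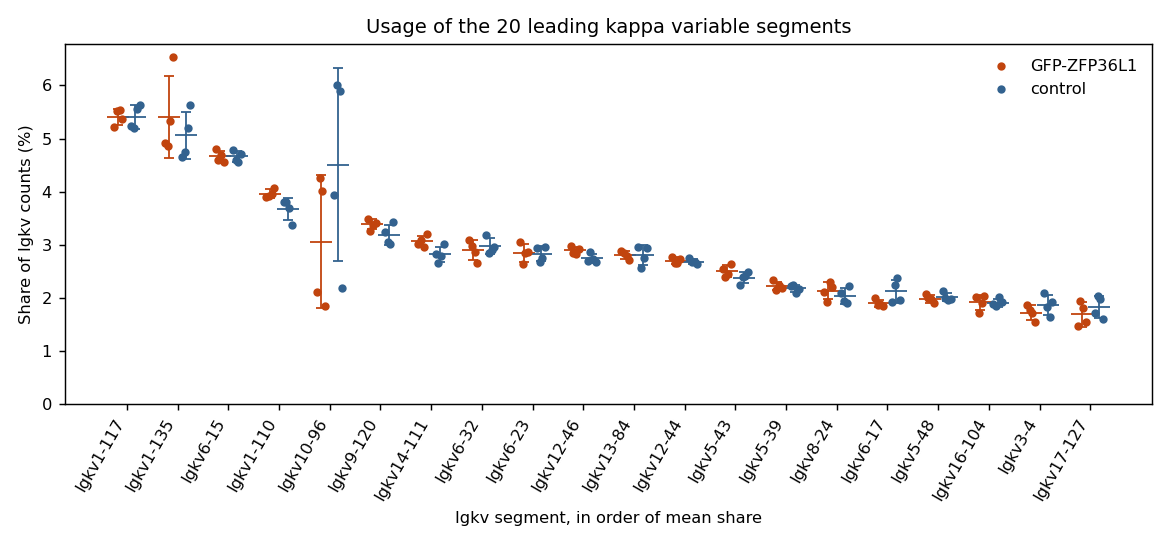
Share of Igkv counts (percent) of the 20 segments with the largest mean share, in order of that mean; dots are the 4 libraries of a group, the bar is the mean and the whiskers 1 SD, with GFP-ZFP36L1 left of control for each segment. Igkv10-96 spans 1.84% to 6.01% over the 8 libraries, a wider range than any other segment shown.

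The next segments in order were Igkv1-110, Igkv10-96, Igkv9-120, Igkv14-111, Igkv6-32, Igkv6-23, Igkv12-46, Igkv13-84, Igkv12-44, Igkv5-43, Igkv5-39, Igkv8-24, Igkv6-17, Igkv5-48, Igkv16-104, Igkv3-4 and Igkv17-127. Their mean shares ran down to 1.75%. Leaving Igkv10-96 aside, the log2 share differences of the other 19 leading segments, GFP-ZFP36L1 over control, ran from -0.16 to 0.12. Their 95% intervals all lay within -0.34 and 0.30, and the smallest adjusted p was 0.239 in edgeR's quasi-likelihood test. Igkv14-111 was at the top of this range, with 3.06% ± 0.10 in libraries labelled GFP-ZFP36L1 and 2.82% ± 0.15 in controls. Igkv6-17 was at the bottom, with 1.99%, 1.86%, 1.88% and 1.84% in libraries labelled GFP-ZFP36L1, against 1.91%, 2.23%, 2.37% and 1.96% in controls. Igkv13-84 and Igkv5-43 had 62.1% and 66.4% of their windows unique, so their shares may include or lack reads of a close copy.

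Igkv10-96 was the exception to this evenness. It took 2.10%, 4.25%, 4.02% and 1.84% of Igkv counts in the libraries labelled GFP-ZFP36L1, against 3.94%, 6.01%, 5.90% and 2.18% in controls. Low libraries occurred in both groups, and the groups overlapped. The CV over the 8 libraries was 43.5%, where counting error alone gives 1.58%, and the highest library held 3.26 times the share of the lowest. The log2 share difference was -0.56 with a 95% interval of -1.57 to 0.45 (edgeR's quasi-likelihood test, adjusted p = 0.565), so a difference between the groups was not detectable against this spread. The 51 segments of at least 0.5% had a median CV of 5.43%, and 45 of them had a CV under 10%.

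The other members of its family did not share this spread. Igkv10-94, the most similar segment, had 1.48%, 1.45%, 1.44% and 1.43% in libraries labelled GFP-ZFP36L1, against 1.38%, 1.43%, 1.32% and 1.41% in controls, with a CV of 3.35%. Igkv10-95 had 0.304% ± 0.015 in libraries labelled GFP-ZFP36L1 and 0.283% ± 0.008 in controls (SD, n = 4 each). The coding sequences of Igkv10-96 and Igkv10-94 are printed from coding base 61, the start of the mature variable region, to their ends, with capitals at the bases that differ.
Igkv10-96: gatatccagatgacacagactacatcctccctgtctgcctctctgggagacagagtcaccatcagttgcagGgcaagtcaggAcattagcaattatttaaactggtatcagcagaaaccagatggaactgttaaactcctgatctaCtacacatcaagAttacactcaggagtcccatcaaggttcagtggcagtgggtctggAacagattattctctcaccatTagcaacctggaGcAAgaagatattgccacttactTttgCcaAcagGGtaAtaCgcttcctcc
Igkv10-94: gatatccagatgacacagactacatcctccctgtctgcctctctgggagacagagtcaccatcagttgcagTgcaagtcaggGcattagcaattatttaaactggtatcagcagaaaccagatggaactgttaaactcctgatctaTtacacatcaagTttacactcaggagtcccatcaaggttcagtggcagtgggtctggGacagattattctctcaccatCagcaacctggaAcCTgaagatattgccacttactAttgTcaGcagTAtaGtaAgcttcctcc
The pair differed at 16 of 287 bases, an identity of 94.4%, and 5 of the 16 differences fell after the cysteine codon. Of the 100-base windows of Igkv10-96, 87.7% were unique in the annotation.

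The next highest CVs among segments of at least 0.5% were those of Igkv14-100 (15.9%), Igkv17-127 (12.3%), Igkv1-135 (11.8%) and Igkv8-30 (11.7%). Igkv17-127 had 1.45%, 1.94%, 1.80% and 1.53% in libraries labelled GFP-ZFP36L1, against 1.71%, 2.02%, 1.98% and 1.60% in controls. The 3 libraries lowest in Igkv17-127, replicates 1 and 4 of GFP-ZFP36L1 and replicate 4 of control, were also the 3 lowest in Igkv10-96, and the highest library was control replicate 2 for both. Its near copy Igkv17-121, at 97.5% identity, had 1.19%, 1.36%, 0.974% and 1.21% in libraries labelled GFP-ZFP36L1, against 1.31%, 1.22%, 1.23% and 1.27% in controls, a different order of libraries. Igkv14-100 had 0.961%, 1.26%, 1.24% and 1.38% in libraries labelled GFP-ZFP36L1, against 0.861%, 1.14%, 0.976% and 1.24% in controls, with replicate 1 lowest in each group. Igkv8-30 had 1.16% ± 0.15 in libraries labelled GFP-ZFP36L1 and 1.09% ± 0.12 in controls (SD, n = 4 each). All these groups overlapped.

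**Figure D3:**
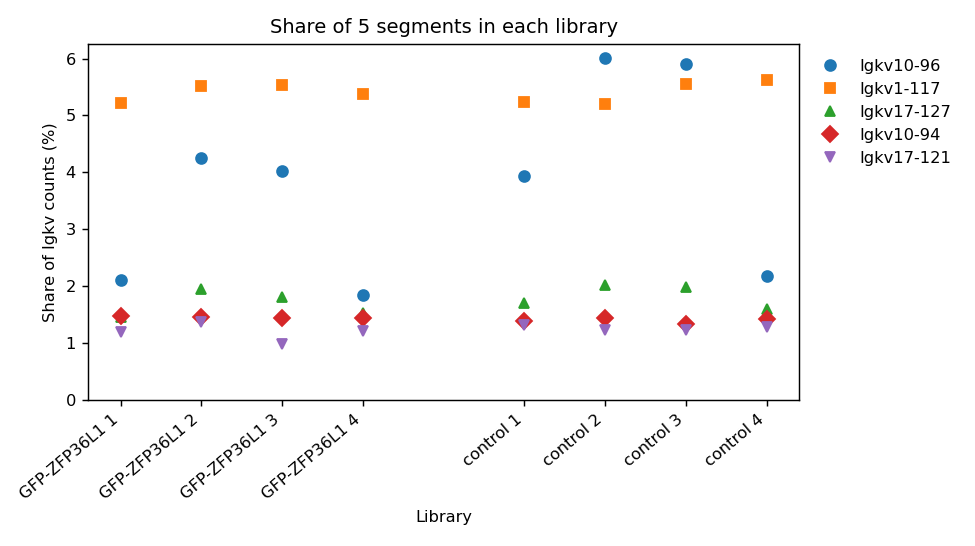
Share of Igkv counts (percent) of 5 segments in each library, with the 4 GFP-ZFP36L1 libraries left of the 4 controls. Igkv10-96 moves between 1.84% and 6.01%, Igkv17-127 between 1.45% and 2.02%, and Igkv10-94 stays between 1.32% and 1.48%.

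Summed by family, 15 of the 19 families held at least 1% of Igkv counts and 3 at least 10%. Family Igkv1, whose leading segment is Igkv1-117, had 16.2% ± 0.84 in libraries labelled GFP-ZFP36L1 and 15.5% ± 0.51 in controls. Family Igkv6, led by Igkv6-15, had 15.8% ± 0.58 in libraries labelled GFP-ZFP36L1 and 16.0% ± 0.25 in controls. Family Igkv4, with 27 segments the most numerous, had 12.9% ± 0.34 in libraries labelled GFP-ZFP36L1 and 13.1% ± 0.34 in controls. None of its segments dominated, and the leading one, Igkv4-72, made up 13.2% of the family. Families Igkv12, Igkv8, Igkv5 and Igkv3 followed, with 8.60% ± 0.19, 7.70% ± 0.35, 6.97% ± 0.19 and 6.76% ± 0.29 in libraries labelled GFP-ZFP36L1, and 8.28% ± 0.11, 7.56% ± 0.42, 6.84% ± 0.08 and 6.84% ± 0.46 in controls. Family Igkv9, mostly Igkv9-120, had 4.32% ± 0.07 in libraries labelled GFP-ZFP36L1 and 4.12% ± 0.19 in controls (SD, n = 4 each).

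No family was called between the groups. By share, edgeR's quasi-likelihood test called 0 of 19 families, where 3.2% of all entries tested were called, and 2 families had an unadjusted p under 0.05. By level, 0 of 19 passed against 3.17% of all entries, with 1 unadjusted p under 0.05. DESeq2 and limma voom also called 0 families by either measure. Of 12956 entries, DESeq2 called 896 by level and 893 by share, and limma voom called 1052 and 1057. The 2 with an unadjusted p under 0.05 by share were Igkv14 and Igkv19. Family Igkv14 had 4.74%, 5.11%, 4.93% and 5.38% in libraries labelled GFP-ZFP36L1, against 4.39%, 4.56%, 4.45% and 4.97% in controls, a log2 difference of 0.13 with an interval of 0.01 to 0.26 (edgeR's quasi-likelihood test, adjusted p = 0.252). Among controls, only replicate 4 reached the range of the libraries labelled GFP-ZFP36L1. Family Igkv19, the single segment Igkv19-93, had 0.0884%, 0.0780%, 0.0613% and 0.0725% in libraries labelled GFP-ZFP36L1, against 0.0547%, 0.0553%, 0.0623% and 0.0559% in controls (log2 difference 0.40, interval 0.08 to 0.72, edgeR's quasi-likelihood test, adjusted p = 0.178).

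**Figure D4:**
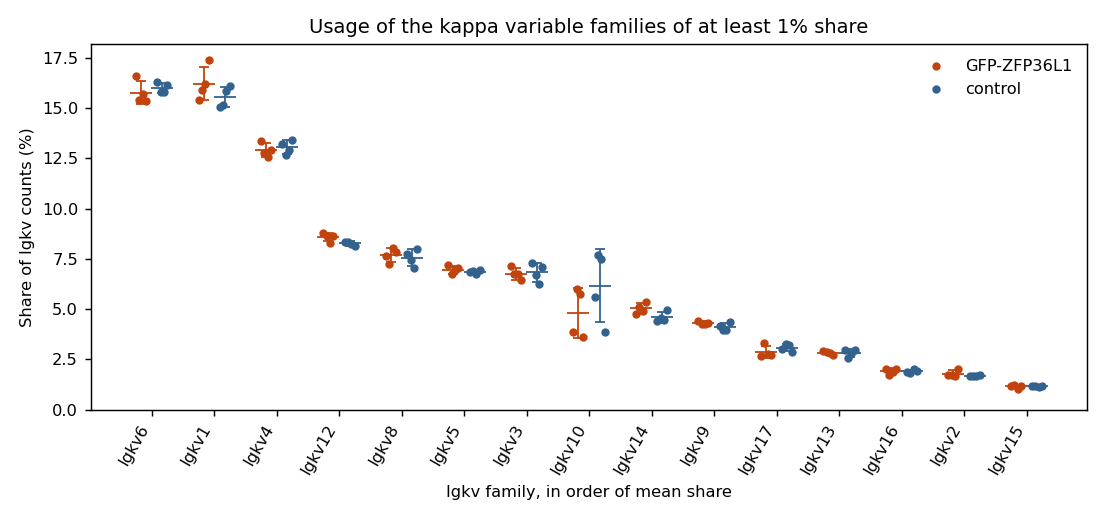
Share of Igkv counts (percent) of the 15 families of at least 1% mean share, in order of that mean; dots are the 4 libraries of a group, the bar is the mean and the whiskers 1 SD, with GFP-ZFP36L1 left of control. The groups overlap in every family shown, and Igkv10 has the widest whiskers, at 4.81% ± 1.25 in GFP-ZFP36L1 and 6.18% ± 1.81 in control.

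Family Igkv10 carried the spread of Igkv10-96, with 3.87%, 6.01%, 5.75% and 3.60% in libraries labelled GFP-ZFP36L1, against 5.61%, 7.71%, 7.52% and 3.87% in controls. Its log2 difference was -0.36 with an interval of -0.98 to 0.25 (edgeR's quasi-likelihood test, adjusted p = 0.545). Family Igkv17 had 2.87% ± 0.29 in libraries labelled GFP-ZFP36L1 and 3.08% ± 0.17 in controls. Families Igkv13, Igkv16, Igkv2 and Igkv15 had 2.83% ± 0.07, 1.91% ± 0.14, 1.79% ± 0.17 and 1.16% ± 0.08 in libraries labelled GFP-ZFP36L1, and 2.82% ± 0.19, 1.90% ± 0.07, 1.69% ± 0.02 and 1.16% ± 0.02 in controls (SD, n = 4 each). For the 14 families of at least 1% other than Igkv10, log2 differences lay between -0.11 and 0.13 and all intervals lay within -0.26 and 0.26.

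Of the 98 segments tested, 1 was called by share, Igkv4-63, where 3.18% of all entries tested were called (edgeR's quasi-likelihood test), and 7 segments had an unadjusted p under 0.05. Igkv4-63, a minus-strand member of the most numerous family, had 0.251%, 0.268%, 0.257% and 0.277% of Igkv counts in libraries labelled GFP-ZFP36L1, against 0.340%, 0.318%, 0.318% and 0.325% in controls. All 4 libraries labelled GFP-ZFP36L1 lay below all 4 controls. Its share was 0.263% ± 0.012 in libraries labelled GFP-ZFP36L1 and 0.326% ± 0.010 in controls (SD, n = 4 each), a log2 difference of -0.31 ± 0.07 (SE; 95% interval -0.47 to -0.14; edgeR's quasi-likelihood test, adjusted p = 0.0483). The share call was lost without any single one of the 8 libraries, with adjusted p between 0.0529 and 0.136 in the same edgeR quasi-likelihood test. In those fits the log2 share difference lay between -0.33 and -0.28. Calls over all entries ranged from 79 to 952 in them, beside 414 with all 8 libraries. Every 100-base window of Igkv4-63 was unique, and its nearest segment, Igkv4-59 at 93.5% identity, had 1.54% ± 0.09 in libraries labelled GFP-ZFP36L1 and 1.60% ± 0.04 in controls.

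By level, Igkv4-63 was likewise the 1 segment called of 98, against 3.12% of all entries tested. It had 8.38, 7.91, 7.93 and 6.89 CPM in libraries labelled GFP-ZFP36L1 and 11.6, 10.8, 10.3 and 9.58 CPM in controls, and the groups did not overlap. The log2 level difference was -0.44 ± 0.09 (SE) (edgeR's quasi-likelihood test, adjusted p = 0.0288). That call was lost without control replicate 1, 2 or 3, or without replicate 2, 3 or 4 of GFP-ZFP36L1, with adjusted p between 0.0561 and 0.0898 in the same edgeR quasi-likelihood test. In the fits that lost it, the log2 level difference lay between -0.45 and -0.38. Calls over all entries ranged from 79 to 240 in them, beside 407 with all 8 libraries. The authors' deposited table also called 1 Igkv segment, Igkv4-63, with an adjusted p of 0.000582, among 875 of 13191 genes with an adjusted p under 0.05.

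**Figure D5:**
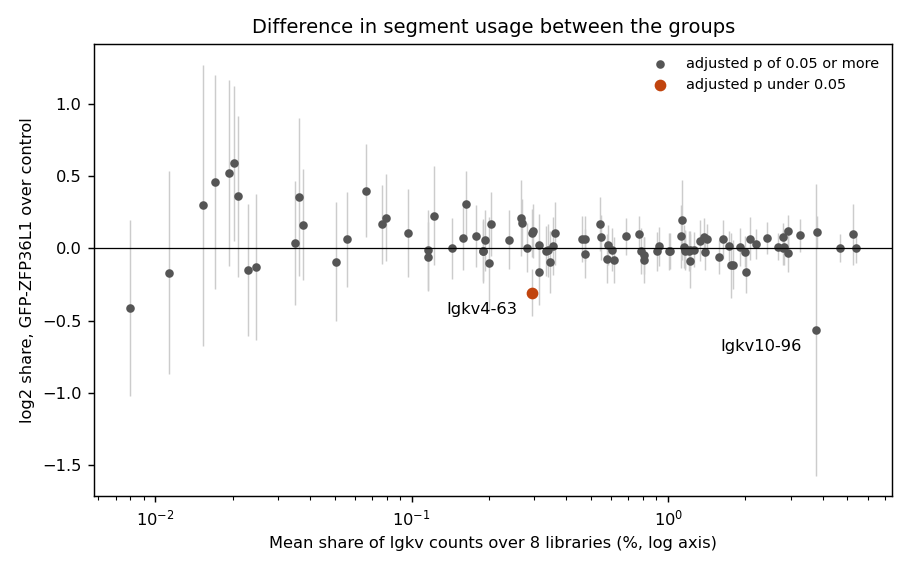
Log2 difference in share, GFP-ZFP36L1 over control (vertical axis), against mean share (percent, log axis) for the 98 tested segments; whiskers are 95% intervals and colour marks an adjusted p under 0.05. Igkv4-63 at -0.31 is the one coloured point, and Igkv10-96 at -0.56 has an interval that crosses 0.

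The shares of the groups did not overlap for 6 of the 98 segments, where 11.2% of all entries tested showed no overlap. In that percentage, Igkv entries were taken by share and all other genes by CPM. Igkv4-63 was the 1 that was lower in libraries labelled GFP-ZFP36L1, where 4.97% of all entries were. The 5 that were higher, where 6.27% of all entries were, were Igkv1-110, Igkv10-94, Igkv4-86, Igkv14-130 and Igkv6-29. By CPM the groups did not overlap for 3 segments, of which 1 was higher and 2 were lower in libraries labelled GFP-ZFP36L1. The nearest share over all entries is the 11.2% above, in which all genes other than Igkv were taken by CPM. Igkv1-110, one of the leading segments, had 3.89%, 3.92%, 3.96% and 4.08% in libraries labelled GFP-ZFP36L1, against 3.81%, 3.81%, 3.69% and 3.37% in controls, a log2 difference of 0.11 (adjusted p = 0.291, edgeR's quasi-likelihood test). The gap between the groups, 3.89% against 3.81%, was small beside the range within controls, and 83.8% of its windows were unique. Igkv14-130 had 0.179% ± 0.013 in libraries labelled GFP-ZFP36L1 and 0.145% ± 0.013 in controls (log2 difference 0.31, edgeR's quasi-likelihood test, adjusted p = 0.146). Igkv4-86 had 0.285% ± 0.011 in libraries labelled GFP-ZFP36L1 and 0.253% ± 0.011 in controls (log2 difference 0.17, edgeR's quasi-likelihood test, adjusted p = 0.282). Igkv6-29, with 44.2% of its windows unique, had 0.0245% ± 0.0078 in libraries labelled GFP-ZFP36L1 and 0.0160% ± 0.0007 in controls (SD, n = 4 each). With Igkv10-96 left out of the total, a choice made after its spread was seen, 4 segments did not overlap. Igkv1-110, at 3.97% to 4.15% in libraries labelled GFP-ZFP36L1 and 3.44% to 4.05% in controls, and Igkv10-94 then overlapped. For the 4 segments the nearest share over all entries is again the 11.2% above, which was taken with Igkv10-96 in the total.

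Over all 98 segments the median log2 level difference was -0.11, with 81 below 0 and 17 above, beside a median of -0.01 over all entries tested. That median over segments was -0.03 without replicate 4 of GFP-ZFP36L1, -0.18 without its replicate 1 and -0.07 with a linear term for the number that each title carries. By share, which removes the total, the median was 0.01, with 39 below 0 and 59 above. Shares of the segments in a library are not independent, since they sum to a fixed total. Pairs of libraries were about as alike within as across groups: over the 51 segments of at least 0.5%, Pearson's r of log2 shares was 0.968 to 0.989 between libraries labelled GFP-ZFP36L1, 0.964 to 0.994 between controls and 0.949 to 0.992 across groups. These correlations are across segments, which are not independent replicates. Without Igkv10-96 the ranges were 0.985 to 0.991, 0.987 to 0.993 and 0.978 to 0.995 in the same order.

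Other genes of light chain assembly and expression were tested by level in the same fit. Of 34 listed, 32 were in the table and 27 were tested, of which 0 were higher and 2 lower in libraries labelled GFP-ZFP36L1 (adjusted p under 0.05, edgeR's quasi-likelihood test), beside 1.83% higher and 1.3% lower over all entries. Igkc, the constant exon shared by all kappa transcripts, had 2289, 1887, 1977 and 1588 CPM in libraries labelled GFP-ZFP36L1, against 2544, 2183, 2211 and 1943 CPM in controls (adjusted p = 0.413, edgeR's quasi-likelihood test). Replicate 1 was highest and replicate 4 lowest in each group, and the groups overlapped. The joining segments Igkj1, Igkj2, Igkj3, Igkj4 and Igkj5 took 7.25%, 17.2%, 26.6%, 22.7% and 26.4% of Igkj counts on average in libraries labelled GFP-ZFP36L1, and 7.0%, 16.4%, 25.5%, 23.5% and 27.6% in controls. By level 0 of the 5 were called, the lowest adjusted p being 0.158 for Igkj4 in edgeR's quasi-likelihood test.

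The 2 called genes were Ighd and Pax5. Ighd, the constant region of IgD, had 2679, 2462, 2718 and 2229 CPM in libraries labelled GFP-ZFP36L1, against 3206, 3220, 3189 and 3076 CPM in controls (log2 difference -0.33, adjusted p = 0.0493, edgeR's quasi-likelihood test). Pax5, a transcription factor that maintains B cell identity, had 209, 204, 208 and 220 CPM in libraries labelled GFP-ZFP36L1, against 234, 242, 252 and 250 CPM in controls (log2 difference -0.22, adjusted p = 0.0405, edgeR's quasi-likelihood test). Neither gene's groups overlapped. Rag1, which with Rag2 encodes the recombinase, had at most 0.115 CPM in any library, and Rag2 had at most 0.0244 CPM. Dntt, which adds bases at the joins, and the surrogate light chain genes Igll1 and Vpreb2 were at 0 in all 8 libraries. The listed Vpreb1 and Vpreb3 were detected in every library and not called. Vpreb1 had 0.292 to 0.438 CPM in libraries labelled GFP-ZFP36L1 and 0.147 to 0.549 CPM in controls. Vpreb3 had 61.85 ± 15.89 CPM in libraries labelled GFP-ZFP36L1 and 83.97 ± 8.37 CPM in controls (SD, n = 4 each), and the groups overlapped. Its log2 difference was -0.44 (adjusted p = 0.209, edgeR's quasi-likelihood test).

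Plasma cells make far more kappa RNA per cell than follicular B cells, so their markers are set beside the kappa levels. The 10 listed plasma cell markers summed to between 278 and 337 CPM in libraries labelled GFP-ZFP36L1 and between 273 and 326 CPM in controls, and Tnfrsf17 was at 0 in all. Mzb1 and Xbp1, with means of 174 and 94.9 CPM over the 8 libraries, made up most of these sums. The sums therefore say little about the other markers. Jchain, a plasma cell gene, had 0.780 to 1.15 CPM in libraries labelled GFP-ZFP36L1 and 1.13 to 2.36 CPM in controls. Prdm1 went the other way without overlap, at 1.82 to 2.90 CPM in libraries labelled GFP-ZFP36L1 and 1.15 to 1.71 CPM in controls. Of the 9 tested, 0 were higher and 2 lower (Fkbp11 and Ighg1), beside 1.83% higher and 1.3% lower over all entries. Ighg1 had 0.737, 0.719, 0.438 and 0.463 CPM in libraries labelled GFP-ZFP36L1, against 1.65, 2.43, 1.38 and 1.92 CPM in controls (adjusted p = 0.00801, edgeR's quasi-likelihood test). Among the follicular markers reported here, Ighd (above) and Cd55 were called lower, beside 1.3% lower over all entries. Cd55 had 646, 587, 578 and 515 CPM in libraries labelled GFP-ZFP36L1, against 765, 860, 794 and 816 CPM in controls (adjusted p = 0.00958, edgeR's quasi-likelihood test). Fcer2a, which encodes CD23, had 1358, 1123, 1255 and 1114 CPM in libraries labelled GFP-ZFP36L1, against 1445, 1452, 1555 and 1388 CPM in controls (adjusted p = 0.102, edgeR's quasi-likelihood test). The 4 marginal zone markers (Cr2, Cd1d1, S1pr3 and Dtx1) gave 0 calls, beside 3.12% of all entries tested. They summed to 1405 to 1726 CPM in libraries labelled GFP-ZFP36L1 and 1387 to 1543 CPM in controls. Cr2 alone had 1185 to 1447 and 1160 to 1299 CPM in the same order, so the sums mostly follow Cr2. Log2 differences were 0.08 (Cr2), -0.06 (Cd1d1), 0.30 (Dtx1) and 0.91 (S1pr3, adjusted p = 0.0539, edgeR's quasi-likelihood test). Of the 5 B1 cell markers, 1 was higher (Itgam, log2 difference 0.80), beside 1.83% over all entries. The other 4, which did not pass the test, had log2 differences of -0.35 (Cd5), -0.40 (Spn), -0.15 (Bhlhe41) and -0.96 (Zbtb32). The 5 summed to 18.0 to 22.4 CPM in libraries labelled GFP-ZFP36L1 and 21.8 to 25.3 CPM in controls. Of the 4 myeloid markers, 2 had enough counts to be tested and 0 were called, with sums over the 4 of 0.842 to 1.56 CPM in libraries labelled GFP-ZFP36L1 and 1.18 to 1.43 CPM in controls. The part of these cell types in the lower share of Igkv4-63 was not tested.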

How the data were processed

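RNA of 8 libraries was measured by paired 100 bp sequencing of a stranded mRNA kit, per the labels. Build GRCm38, TopHat2 2.0.12, DESeq2 1.10.1, HTSeq and Trim Galore are named in the submitters' processing notes. No source used here gives the strand setting of the counting. The authors deposited raw counts per gene, on which all tests were run. Normalized values deposited beside them were read as a signal and used only to check that each library's counts differ from it by 1 constant. The deposited comparison table gives the authors' log2 fold changes and p-values, which were used only for the Igkv entries and the number of calls. Symbols, coordinates and transcripts came from GENCODE mouse release M21.

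Levels and shares were tested in R 4.3.3 with edgeR 4.0.16 (filterByExpr, TMM, robust quasi-likelihood test) on the whole table, with Benjamini-Hochberg adjustment over all entries tested and an adjusted p under 0.05 called. For shares, the Igkv entries had the log of the library's Igkv total as offset. For families, segments were replaced by family sums. Standard errors came from the F statistic. The procedure was tested on simulated data. Replicates were numbered in accession order and not paired. Alternatives used DESeq2 1.42.0, limma 3.58.1 voom, other filters, scalings and denominators, and each library left out. Descriptions used Python 3.11.15 with pandas 2.3.3 and numpy 2.4.6, and sequences were read with Biopython 1.88.

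Members and gene lists were chosen with earlier results of these data known. Named segments are the 20 of largest mean share, any called, the 5 with the largest CV and any without overlap among those of at least 0.5%, and families of at least 1%; Igkv10-95, Igkv17-121, Igkv4-59, Igkv19-93, Igkv4-72, Igkv1-35 and the segments without overlap under 0.5% were added after their values were seen. Total counts limit precision to counting CVs of 1.17% to 3.72% for segments of at least 0.5%. Some members of the B cell and follicular marker lists are not reported here.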

Additional observations from a re-analysis of the deposited data

How the results depend on the processing

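The count of segments called by share, 1, stayed 1 under 7 alternatives. It was 0 with no filter on low counts and 0 with Igkc counts as the denominator, and ranged from 0 to 0 as each library was left out. The log2 share difference of Igkv4-63 was negative throughout, at -0.31 with adjusted p = 0.0882 with no filter and at -0.24 with adjusted p = 0.143 with the Igkc denominator (edgeR's quasi-likelihood test). DESeq2 gave adjusted p = 0.00736. The count by level ranged from 0 to 1 with each library left out and was 1 under the other 9 alternatives. Families called stayed at 0 under all 17 alternatives by level and all 18 by share. The log2 share difference of Igkv10-96 ranged from -0.79 to -0.39 over 17 alternatives. Among 28 other named segments and families, 60 of 488 values changed sign, none was larger than 0.06 in size after doing so, and 0 were called. The share of the 51 segments nearest Igkj1 was 51.3% in libraries labelled GFP-ZFP36L1 and 51.4% in controls, and that of the nearest 34 was 34.1% in libraries labelled GFP-ZFP36L1. No paired analysis was possible because the labels give no replicate numbers shared between the groups. With 4 libraries per group and the spread of Igkv10-96, intervals for that segment span over 1 log2 unit. Segments under 0.5% had counting CVs of 3.98% to 31.4%, which limits what their shares can show.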

Other observations

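Lambda light chain usage, which is counted apart from the kappa shares, overlapped between the groups. Iglv1, Iglv2 and Iglv3 together made up 7.80%, 7.54%, 8.51% and 9.73% of kappa plus lambda variable counts in libraries labelled GFP-ZFP36L1, against 6.86%, 7.12%, 8.49% and 8.28% in controls. Iglc2 made up 23.2% ± 1.29 of Igkc plus Iglc2 counts in libraries labelled GFP-ZFP36L1 and 21.7% ± 0.67 in controls (SD, n = 4 each). None of these 4 lambda genes was called by level (adjusted p of at least 0.387, edgeR's quasi-likelihood test), and 0 had an unadjusted p under 0.05. The constant gene percentage was far above the variable gene percentage, and which lies nearer to the fraction of lambda cells was not tested. Iglc1 and Iglc3, also listed, were not in the table. The 6 annotated pseudogenes held 0.0283%, 0.0369%, 0.0359% and 0.0676% of Igkv counts in libraries labelled GFP-ZFP36L1, against 0.0203%, 0.0321%, 0.0381% and 0.0459% in controls, with the highest value in replicate 4 of each group.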
